A study of Mus musculus with 8 samples.

Results

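The genes of serotonin synthesis, transport, breakdown and reception described here are 10 of the 55488 genes in each library table: Tph1, Ddc, Slc6a4, Slc18a2, Maoa, Maob, Htr1b, Htr1d, Htr2a and Htr2b. They were named by symbol for their known roles in serotonin biology, though with earlier results of these data known. The tissue was dorsal skin of mice aged 3 months, either wild type or carrying a knockout of Tph1, and whole-skin RNA was sequenced in bulk from 4 libraries of each genotype. The labels give no strain, litter, sex, knockout design or breeding scheme, nor whether the libraries stem from different mice, so the p-values given here reflect only the variation among these libraries, which may be technical. In bulk tissue, fewer cells of a type and less RNA per cell cannot be told apart.

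Serotonin is made from tryptophan in a pair of steps, hydroxylation by tryptophan hydroxylase (Tph1 outside the brain, Tph2 in neurons) and decarboxylation by aromatic amino acid decarboxylase (Ddc). The plasma membrane transporter encoded by Slc6a4 takes serotonin into cells, the vesicular transporter encoded by Slc18a2 loads it into granules, and the mitochondrial monoamine oxidases A and B (Maoa, Maob) begin its breakdown. Most serotonin receptors are G protein-coupled: the products of Htr1b and Htr1d couple to inhibitory G proteins and those of Htr2a and Htr2b to Gq proteins. Outside the brain, serotonin is known from gut enterochromaffin cells, from platelets, which take it up with the Slc6a4 product, and in rodents from mast cells.

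The upstream windows of 3 of these genes are shown: Slc6a4 and Maoa, because they were expressed above 1 TPM in the levels given below, and Tph1, because it is the targeted gene. RefSeq (GRCm38.p6) had promoter entries for 9 of the 10 genes, with none for Maob. Each window is the 250 bases before the gene's most upstream start in that table, written 5′ to 3′ on the gene's strand, with CpG dinucleotides in capitals.
Slc6a4 (chr11:76998347-76998596, plus strand): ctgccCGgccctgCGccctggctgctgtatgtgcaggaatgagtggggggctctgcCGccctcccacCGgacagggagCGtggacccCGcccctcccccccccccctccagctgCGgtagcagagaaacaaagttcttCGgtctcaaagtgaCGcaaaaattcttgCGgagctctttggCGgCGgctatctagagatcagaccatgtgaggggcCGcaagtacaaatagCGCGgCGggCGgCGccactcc
Maoa (chrX:16619448-16619697, plus strand): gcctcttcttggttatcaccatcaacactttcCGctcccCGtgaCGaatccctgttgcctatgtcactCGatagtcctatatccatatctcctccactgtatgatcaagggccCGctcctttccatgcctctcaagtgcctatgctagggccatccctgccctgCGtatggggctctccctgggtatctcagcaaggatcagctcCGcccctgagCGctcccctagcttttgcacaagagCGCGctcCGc
Tph1 (chr7:46672538-46672787, minus strand): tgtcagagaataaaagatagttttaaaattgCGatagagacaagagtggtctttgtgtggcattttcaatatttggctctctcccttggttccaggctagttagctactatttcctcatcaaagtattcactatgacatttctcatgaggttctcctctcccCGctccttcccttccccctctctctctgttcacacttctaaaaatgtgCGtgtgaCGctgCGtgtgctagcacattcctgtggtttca

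The Slc6a4 window held 18 CpG dinucleotides, the Maoa window 11 and the Tph1 window 5, against a median of 6 over the 32536 distinct windows of that length in the table. The GC box GGGCGG, searched on both strands, occurred 3 times in the Slc6a4 window and 1 time in the Maoa window, and 33.0% of all windows held it. The TATA motif TATAAA, also searched on both strands, was in none of these 3 windows and in 12.3% of all windows. Across the other 6 genes with an entry, the window of Slc18a2 held 9 CpG dinucleotides, those of Htr1b and Htr1d 6 each, Htr2a 4, Htr2b 3 and Ddc 1. These matches describe the letters in the windows and are not evidence of binding.

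The libraries held 20531601 to 24678638 expected counts, RSEM's estimates of reads per gene. Counts of Xist, which is read from the inactive X chromosome, were between 6572 and 16461, and the Y-linked genes Ddx3y, Eif2s3y, Kdm5d and Uty had 0 counts in all 8 libraries, so the X-linked genes Maoa and Maob were compared among libraries with 1 pattern of sex-linked transcripts. Skin markers were present in every library, with at least 82283 counts of the basal keratin gene Krt5 and 30908 of the spinous keratin gene Krt10. The share of counts on 8 skeletal muscle markers ran from 1.29% in wild type replicate 3 to 7.9%. CPM below are counts in each 1e6, scaled by TMM. Immediate early and heat shock genes, 8 in all and known to respond to tissue handling, summed to 1490 to 8420 CPM in wild type against 912 to 2300 in knockout. With the level of these genes as a covariate 5 genes in all were called, none of them among the 10. Their summed level averaged 4980 CPM in wild type and 1370 in knockout. Estimates with this handling covariate therefore cannot fully separate handling from genotype.

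Of the 10 genes, 3 were expressed at a mean of 1 TPM or more (a unit that is scaled to gene length and so allows levels of different genes to be compared). These were Maob at 20.7 TPM over the 8 libraries, Slc6a4 at 16.7 TPM and Maoa at 6.07 TPM. Among the 16908 genes abundant enough to test, these levels stood at the 69.3, 64.3 and 40.6 percentiles. The other 7 were low, with more than 3 counts in at least 1 library but a mean under 1 TPM: Htr1d at 0.721 TPM, Slc18a2 at 0.609, Htr2a at 0.254, Htr2b at 0.246, Tph1 at 0.228, Ddc at 0.224 and Htr1b at 0.152. Thus the plasma membrane transporter gene and both breakdown genes were above this level, and both synthesis genes, the vesicular transporter gene and all 4 receptor genes were below it. Among these, Htr1d had 10 to 38 counts per library and Ddc 0 to 5. In this order of TPM levels, Slc6a4 lay above Maoa and Maoa above Htr1d in 8 of 8 libraries without overlap of their ranges, whereas every other pair of neighbours overlapped. Maob was above Slc6a4 in 5 of 8 libraries only.

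**Figure D1:**
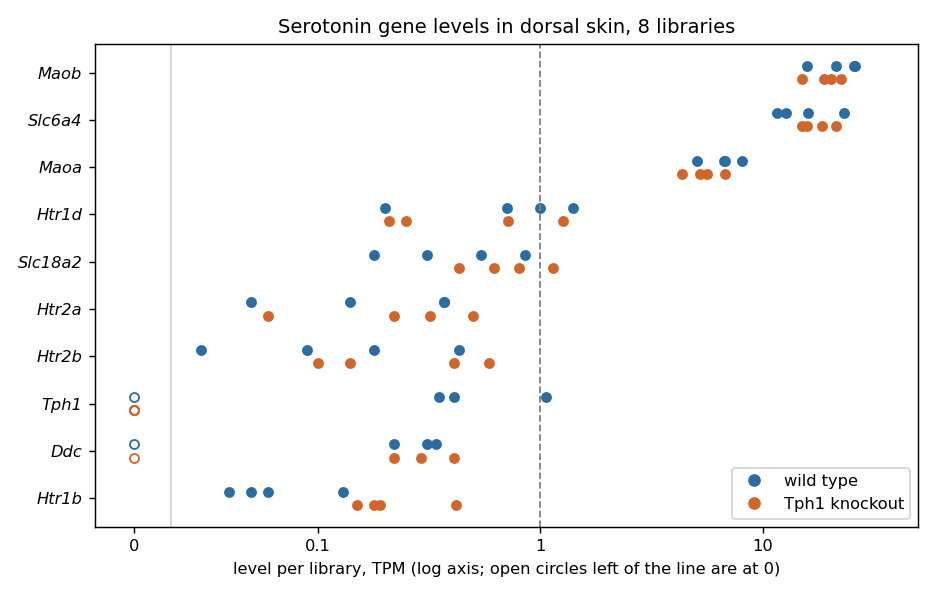
Level of each gene in each library in TPM on a log axis, with wild type in blue, Tph1 knockout in orange, open circles at 0 and a dashed line at 1 TPM. All 8 libraries of Maob, Slc6a4 and Maoa lie right of the line, and the points of the 7 other genes lie mostly left of it.

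In the comparison of genotypes, 0 of the 7 genes that passed the filter on low counts were called by edgeR's quasi-likelihood test at an adjusted p under 0.05, where 0.651% of the 16908 tested genes were called, 0.118% higher and 0.532% lower in knockout. Htr1b alone was under 0.05 before adjustment, against 17.6% of all tested genes. DESeq2 called 0 as well, giving no adjusted p for Htr1b, and so did the 3 limma fits. The median log2 fold change of the 7, knockout over wild type, was 0.24, beside 0.03 over all tested genes, with 5 positive and 2 negative values. Since a gene passes the filter only with enough counts, Tph1, Ddc and Htr2b were outside this fit and were assessed with a two-sided exact permutation test, which cannot give a p below 0.0286 with 4 against 4 libraries.

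**Figure D2:**
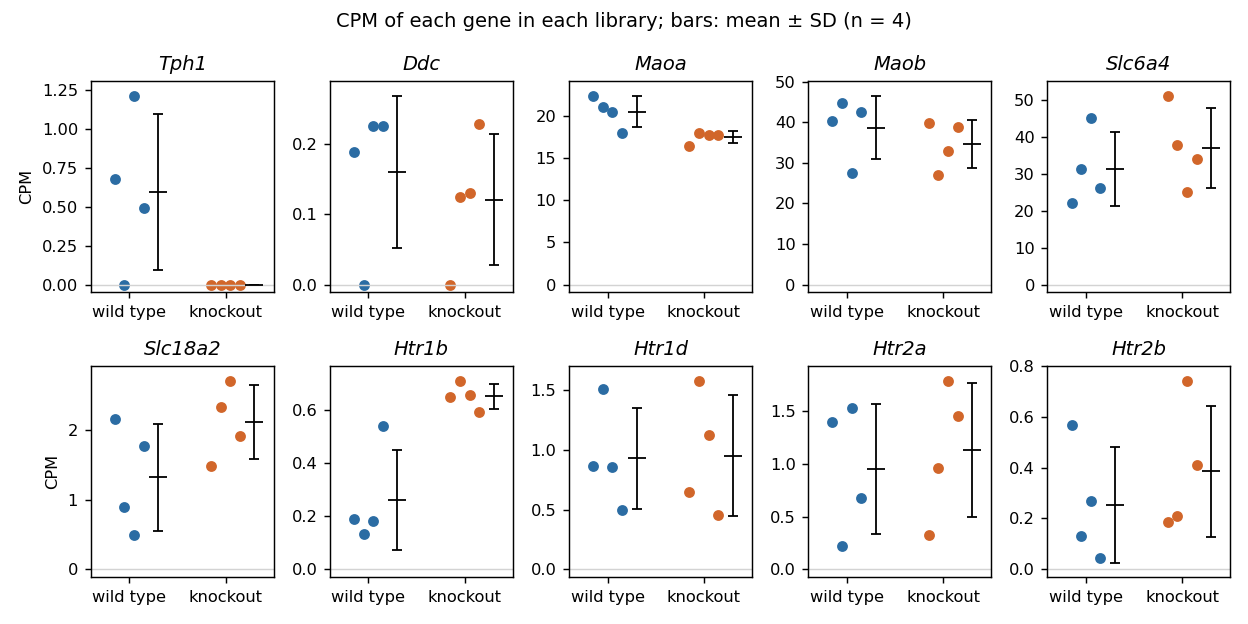
CPM of each of the 10 genes in each library, wild type in blue and knockout in orange, with the mean ± SD (n = 4) in black and a separate axis from 0 for each gene. The genotypes overlap in 9 of the 10 genes, Tph1 included through the wild-type library at 0, and are apart in Htr1b. Of all tested genes, 11.0% were apart in either direction.

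Of the synthesis genes, Tph1 (ENSMUSG00000040046, chromosome 7 from 46644641 to 46672537 on the minus strand of GRCm38) held 18, 0, 27 and 11 counts in wild type replicates 1 to 4 and 0 in each knockout library. A count of 0 allows up to 3 counts, or 0.125 to 0.139 CPM per knockout library. For the library sizes, the 56 pooled wild-type counts were 18.1-fold higher than 3 counts over the pooled knockout libraries. That value leaves out the counting error of the 56. The exact (Clopper-Pearson) 95% interval of the knockout to wild-type ratio was 0 to 0.0703, which covers counting error only. Tph1 averaged 0.597 ± 0.501 CPM (SD, n = 4) in wild type, and 0.392 CPM without wild type replicate 3. Wild type replicate 2 was also at 0, so the genotypes overlapped (exact permutation p = 0.143). Tph1 has 8 annotated transcripts, and RSEM's effective length for it was 2819 bases in wild type replicate 1 and 1491 in replicate 3. For that reason 18 counts were worth 0.35 TPM and 27 counts 1.06 TPM.

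Ddc (ENSMUSG00000020182, chromosome 11 from 11814101 to 11898144, minus strand), whose product completes serotonin synthesis and also makes dopamine, was barely read in either genotype. Its counts were 5, 0, 5 and 5 in wild type and 0, 3, 3 and 5 in knockout, with the genotypes overlapping (exact permutation p = 0.657). The pooled 15 and 11 counts correspond to a knockout to wild-type ratio of 0.757, with an exact (Clopper-Pearson) 95% interval of 0.314 to 1.76 that covers counting error only. The neuronal hydroxylase gene Tph2 had 0 to 10 counts per library.

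Most genes for the hydroxylases' cofactor tetrahydrobiopterin were read at higher levels. Of 8 further synthesis and cofactor genes, 6 were expressed and tested, the exceptions being Tph2 and Gchfr, a regulator of cofactor synthesis with 0 to 11 counts per library. Of these 6, 0 were called by edgeR, and the median log2 fold change was -0.11. Before adjustment 1 was under 0.05, beside 17.6% of all tested genes. The highest were Qdpr, which regenerates the cofactor, at 58.0 ± 5.81 TPM (SD, n = 4) in wild type against 52.7 ± 4.8 in knockout, then Spr and Pts, which carry out the last and the middle step of its synthesis. Spr was at 49.3 ± 6.50 and 44.1 ± 2.87 TPM and Pts at 33.4 ± 2.75 and 35.5 ± 4.9. Gch1, which carries out the first and rate-limiting step, was named after its values were seen. It was at 12.3, 6.0, 5.3 and 6.75 CPM in wild type and 3.33, 3.5, 6.14 and 4.32 in knockout. All but 1 knockout library lay below all wild-type libraries, and the log2 fold change was -0.81 ± 0.32 (SE, adjusted p = 0.234 in edgeR).

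Of the transporter genes, Slc6a4 (ENSMUSG00000020838, chromosome 11 from 76998603 to 77032340, plus strand) was read at 587, 705, 1008 and 582 counts in wild type and 1105, 911, 573 and 750 in knockout. On the CPM scale these were 22.2, 31.3, 45.3 and 26.2, and 51.1, 37.9, 25 and 34.1. Knockout replicate 1 and wild type replicate 3 were the highest and wild type replicate 1 the lowest, so the genotypes overlapped over most of their range. The log2 fold change was 0.25 ± 0.26 (SE, adjusted p = 0.642 in edgeR), with a 95% interval of -0.33 to 0.82, that is 0.793-fold to 1.77-fold. The annotated antisense gene at this locus, Gm12343, had 0 counts in all libraries.

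The Slc6a4 level was set beside markers of platelets, which are known to carry this transporter. Of 8 platelet markers, 4 were tested and 0 called. Pf4, which macrophages can also express, was the highest per length at 35.4 TPM, followed by Itga2b at 6.07 TPM (46 to 150 counts), Gp1bb at 5.12 TPM (42 to 527 counts) and Gp1ba at 0.92 TPM (24 to 64 counts). The other 4 were lower, with Gp6 at no more than 2 counts in any library, Treml1 at 4, Gp9 at 5 and Ppbp at 27. The summed platelet level was 19.0 to 42.0 CPM in wild type and 10.6 to 21.1 in knockout. It was lowest in knockout replicate 4, where Slc6a4 was at 34.1 CPM, and highest in wild type replicate 3, where Slc6a4 was at 45.3 CPM. Wild type replicate 2 was lowest of its genotype in the platelet level, at 19.0 CPM, and second highest in Slc6a4, at 31.3 CPM. Whether platelet RNA contributes to the Slc6a4 counts was not tested.

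Slc18a2 (ENSMUSG00000025094, chromosome 19 from 59260896 to 59296012, plus strand), the vesicular monoamine transporter gene, had 57, 20, 11 and 39 counts in wild type and 32, 56, 62 and 42 in knockout. In CPM these were 2.16, 0.889, 0.494 and 1.76, and 1.48, 2.33, 2.7 and 1.91. A pair of wild-type libraries, replicates 2 and 3, lay below every knockout library, and the other pair lay within the knockout range. The log2 fold change was 0.66 ± 0.45 (SE, adjusted p = 0.462 in edgeR), with a 95% interval of -0.34 to 1.67. Mast cells store monoamines in granules loaded by this transporter, and the summed level of 9 mast cell markers was 136, 41.4, 62.4 and 63.7 CPM in wild type and 36.9, 30.6, 86.2 and 28.1 in knockout. Of the 7 tested mast cell markers 5 had negative log2 fold changes, with a median of -0.67, and 0 were called. Wild type replicate 1 and knockout replicate 3 were each the highest of their genotype in both Slc18a2 and the mast cell sum. Knockout replicate 2 had a higher Slc18a2 level than all wild-type libraries and a lower mast cell sum than all of them. Whether mast cell RNA contributes to the Slc18a2 counts was not tested. With the mast cell level as a covariate the log2 fold change of Slc18a2 was 1.07 (adjusted p = 0.280 in edgeR, and 0.280 to 0.815 over all alternatives).

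**Figure D3:**
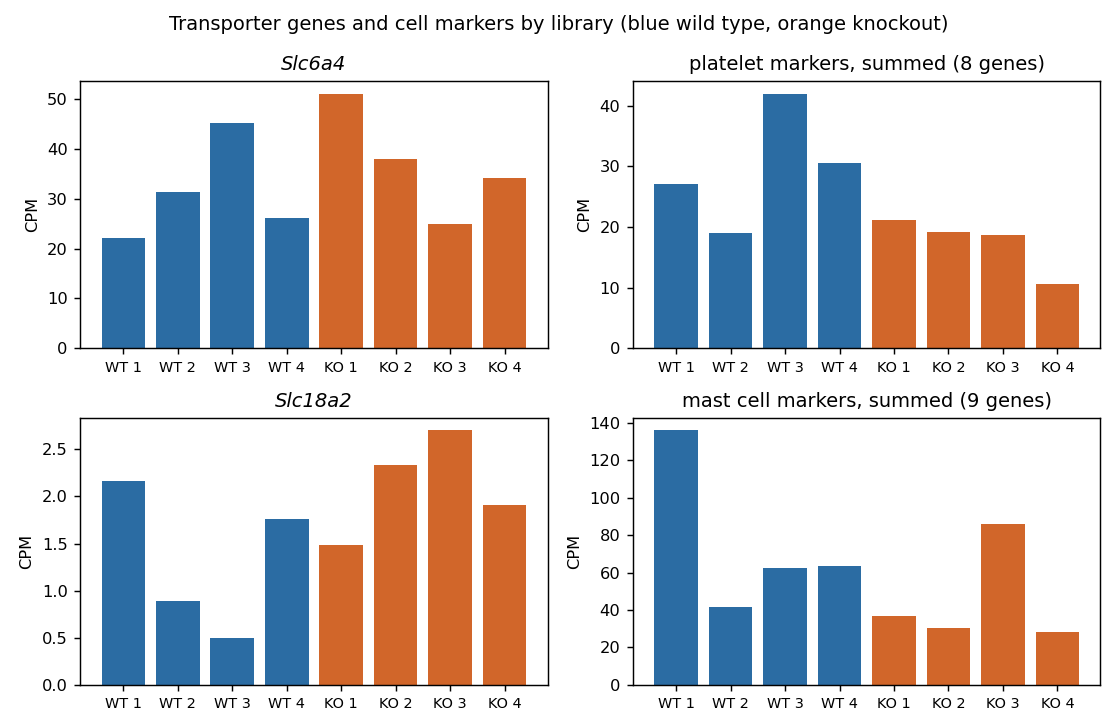
CPM of Slc6a4 and Slc18a2 (left) and the summed CPM of platelet and mast cell markers (right) in the 8 libraries, wild type in blue and knockout in orange, bars from 0. Slc6a4 is highest in knockout replicate 1 and the platelet sum in wild type replicate 3, and Slc18a2 is highest in knockout replicate 3 and the mast cell sum in wild type replicate 1. Within each genotype, each gene and the marker sum beside it are highest in the same library, but the order of the other libraries differs between them.

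Of 10 further carriers of monoamines and of tryptophan, 5 were expressed and tested and 0 were called by edgeR. Their median log2 fold change was -0.23. Before adjustment 2 were under 0.05, beside 17.6% of all tested genes. Slc3a2 and Slc7a5, which encode the heavy and light chains of the large neutral amino acid exchanger, were at 105 ± 18.8 and 18.4 ± 6.38 TPM (SD, n = 4) in wild type and 93.7 ± 16 and 11.6 ± 3.33 in knockout. For Slc7a5 the log2 fold change was -0.58 ± 0.23 (SE, adjusted p = 0.229 in edgeR), and it was -0.0024 with the tissue handling covariate and -0.30 with the muscle covariate (adjusted p from 0.159 to 1.0 over all alternatives). Slc7a8, an alternative light chain gene, was at 5.20 ± 2.37 TPM in wild type and 9.76 ± 3.86 in knockout, and the log2 fold change was 0.91 ± 0.36 (SE, adjusted p = 0.235 in edgeR). Slc18a1, the second vesicular monoamine transporter gene, held 1, 0, 2 and 1 counts in wild type and 7, 3, 6 and 4 in knockout. These did not overlap but were too few to test in the fit (exact permutation p = 0.0286). The lowest knockout library held 3 counts and the highest wild-type library 2. Of all tested genes 5.39% had every knockout library higher, and the share among genes below the filter was not computed.

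Of the breakdown genes, Maob (ENSMUSG00000040147, chromosome X from 16709282 to 16817366, minus strand) was the highest of the 10 per length. It was at 25.79, 25.96, 15.86 and 21.25 TPM in wild type and 18.74, 14.96, 22.37 and 20.28 in knockout. Wild type replicate 3 and knockout replicate 2 were the lowest and the genotypes overlapped. The log2 fold change was -0.16 ± 0.18 (SE, adjusted p = 0.660 in edgeR), with a 95% interval of -0.57 to 0.24. In CPM, where wild type replicate 3 was at 27.5 and the other wild-type libraries at 40.2 to 44.8, the knockout libraries were at 26.9 to 39.8. With each library left out in turn, the genotypes were apart only without wild type replicate 3, the library that made the overlap. This follows from which library is left out, and the share of all genes apart in such a split was not computed. Without wild type replicate 3 the log2 fold change was -0.30 (adjusted p = 0.476 in edgeR, and 0.296 to 0.901 over all alternatives). That library also had the lowest skeletal muscle share, and the log2 fold change of Maob was -0.35 with the muscle covariate (adjusted p = 0.296) and -0.63 with the handling covariate (adjusted p = 0.600).

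Maoa (ENSMUSG00000025037, chromosome X from 16619698 to 16687818, plus strand), the isoform that prefers serotonin as substrate, was at 22.3, 21, 20.5 and 18.0 CPM in wild type and 16.4, 18.0, 17.7 and 17.7 in knockout. Of the knockout libraries, 3 lay below the wild-type range, and replicate 2 met wild type replicate 4, the lowest of its genotype. The means were 20.5 ± 1.84 and 17.5 ± 0.719 CPM (SD, n = 4), and the log2 fold change was -0.23 ± 0.12 (SE, adjusted p = 0.340 in edgeR). The 95% interval was 0.714-fold to 1.02-fold, the narrowest of the 7 tested genes. Maob was above Maoa in TPM in every library, by 2.38-fold to 4.31-fold, and this ratio was 3.40 ± 0.797 (SD, n = 4) in wild type against 3.54 ± 0.719 in knockout (p = 0.771, exact permutation test).

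Of 9 further breakdown and conversion genes, 5 were expressed and tested, with a median log2 fold change of -0.08. Of these 5, 0 were called by edgeR and 0 were under 0.05 before adjustment, beside 17.6% of all tested genes. Aldh2 and Akr1a1, whose products oxidize or reduce aldehydes such as the product of monoamine oxidase, were at 255 ± 44.3 and 258 ± 28.1 TPM (SD, n = 4) in wild type and 265 ± 20 and 202 ± 22.1 in knockout. Tgm2, which encodes a transglutaminase that can attach serotonin to proteins, was at 48.5 ± 20.5 and 56.4 ± 14 TPM. Of the genes for melatonin synthesis from serotonin, Aanat had at most 5 counts and Asmt at most 1. The tryptophan-degrading enzyme genes Ido1 and Tdo2 had at most 3 and 9 counts.

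Of the 14 serotonin receptor genes of the mouse, 0 reached a mean of 1 TPM. There were 5 low ones, Htr1d, Htr2a, Htr2b, Htr7 and Htr1b, and the other 9 had at most 3 counts in any library. Of those 9, Htr1a, Htr1f, Htr2c, Htr3b and Htr5a had 0 counts in all 8 libraries, and Htr6, Htr5b, Htr3a and Htr4 had 1 to 3 in their highest. The TPM of all 14 together was 2.29, 1.14, 2.27 and 0.74 in wild type and 0.78, 1.62, 3.16 and 1.09 in knockout, with the genotypes overlapping (exact permutation p = 0.971). Each receptor difference below therefore rests on few counts, at most 41 in any library.

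Htr1b (ENSMUSG00000049511, chromosome 9 from 81628291 to 81633828, minus strand) held 5, 3, 4 and 12 counts in wild type and 14, 17, 15 and 13 in knockout. All 4 knockout libraries lay above all 4 wild-type libraries, though the lowest knockout library exceeded wild type replicate 4 by 1 count. On the CPM scale the means were 0.261 ± 0.188 (SD, n = 4) in wild type against 0.650 ± 0.0475 in knockout. The log2 fold change was 1.31 ± 0.50 (SE, adjusted p = 0.226 in edgeR), with a 95% interval of 0.19 to 2.43. It was the only 1 of the 7 tested genes without overlap, where 5.39% of all tested genes had every knockout library higher and 11.0% were apart in either direction. With 1 library left out at a time the log2 fold change ran from 1.10 to 1.91, the highest value being without wild type replicate 4 (adjusted p = 0.133 in edgeR, and 0.133 to 0.674 over all alternatives). In TPM knockout replicate 3 stood at 0.42 and the other knockout libraries at 0.15 to 0.19, as RSEM gave the gene an effective length of 2367 bases in that library and 3942 to 4581 in the others.

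Htr1d (ENSMUSG00000070687, chromosome 4 from 136423524 to 136444398, plus strand) had 23, 34, 19 and 11 counts in wild type and 14, 38, 26 and 10 in knockout. Each genotype held a library near 10 counts and one above 30, and the ranges were almost the same. The log2 fold change was 0.04 ± 0.49 (SE, adjusted p = 0.978 in edgeR), with a 95% interval of 0.480-fold to 2.20-fold. With the effective length of each library in the model it was -0.42 (adjusted p = 0.769 in edgeR, and 0.740 to 1.0 over all alternatives), so its direction depended on the scale. The gene's effective length was 790 bases in wild type replicate 3 and 2761 in wild type replicate 2, where 19 and 34 counts gave 1.41 and 0.71 TPM.

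Htr2a (ENSMUSG00000034997, chromosome 14 from 74640840 to 74709494, plus strand) had 37, 5, 34 and 15 counts in wild type and 7, 23, 41 and 32 in knockout. The low libraries were wild type replicate 2 and knockout replicate 1, and the genotypes overlapped. The log2 fold change was 0.24 ± 0.64 (SE, adjusted p = 0.872 in edgeR), with a 95% interval of -1.18 to 1.66. It was -0.10 without wild type replicate 2 and -0.069 without knockout replicate 3. Each of these low libraries had the highest skeletal muscle level of its genotype, at 81100 and 86600 CPM summed over 8 markers. Knockout replicate 4 had a similar muscle level, 83400 CPM, with 32 counts of Htr2a. The part of muscle RNA in these levels was not tested. With the muscle level as a covariate the log2 fold change of Htr2a was 0.96 (adjusted p = 0.497 in edgeR), and with the tissue handling level it was 1.85 (adjusted p = 0.736), in a range of adjusted p from 0.497 to 0.979 over all alternatives.

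Htr2b (ENSMUSG00000026228, chromosome 1 from 86099026 to 86111970, minus strand) had 15, 3, 6 and 1 counts in wild type and 4, 5, 17 and 9 in knockout, below the filter. The genotypes overlapped (exact permutation p = 0.486), and the pooled 25 and 35 counts gave a knockout to wild-type ratio of 1.44 with an exact (Clopper-Pearson) 95% interval of 0.840 to 2.52, counting error only. The gene lies within the span of Psmd1, a proteasome subunit gene on the opposite strand with 2189 to 3284 counts. The library kit does not mark strand, so reads from the stretch these genes share cannot be assigned by strand, and the Htr2b counts are uncertain. Only the spans of the genes were compared, not their exons. Htr7, the remaining low receptor gene, had 0 to 16 counts per library and was not tested.

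Genes for proteins to which the receptors couple were abundant. Of 11 such genes, 10 were expressed and all 11 tested. Of the 11, 0 were called by edgeR, and the median log2 fold change was -0.07. Before adjustment 2 were under 0.05, beside 17.6% of all tested genes. Those 2 were also the only ones of the list without overlap between genotypes, both lower in knockout, where 5.65% of all tested genes had every knockout library lower. S100a10, whose product binds the Htr1b receptor and aids its display at the cell surface, was at 298, 291, 386 and 247 CPM in wild type and 233, 217, 145 and 187 in knockout. Its log2 fold change was -0.64 ± 0.19 (SE, adjusted p = 0.154 in edgeR), with a 95% interval of -1.08 to -0.21. DESeq2 called it (log2 fold change -0.66, adjusted p = 0.0373, against up to 0.773 over all alternatives), the only call by that tool among the 27 tested genes beyond the main 10, where it called 5.95% of the 16541 genes to which it gave an adjusted p.

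Gnai2, an inhibitory G protein gene, had a mean of 234 ± 9.82 CPM (SD, n = 4) in wild type against 182 ± 23.1 in knockout (log2 fold change -0.36 ± 0.13, SE, adjusted p = 0.216 in edgeR). Plcb3, a phospholipase gene downstream of Gq proteins, had a mean of 123 ± 10.5 CPM in wild type against 107 ± 10.9 in knockout (log2 fold change -0.19 ± 0.12, SE, adjusted p = 0.420 in edgeR). Its difference was larger per length, at 61.3 ± 10.1 against 46.3 ± 7.13 TPM, with an effective length of 2269 to 3193 bases across libraries and a log2 fold change of -0.34 with that length in the model. With the handling covariate it was -0.038, and its adjusted p ranged from 0.310 to 0.968 over all alternatives. The 6 suprabasal keratinocyte markers had negative log2 fold changes as well. Of these 1 was called, beside 0.651% of all tested genes, and their summed level was 7860 to 10600 CPM in wild type and 3510 to 6010 in knockout. All 8 adipocyte, 5 macrophage and 8 tissue handling markers were negative too, whereas 0 of the 8 skeletal muscle markers were. The part of any of these cells, or of handling, in the Gnai2 and Plcb3 differences was not tested.

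**Figure D4:**
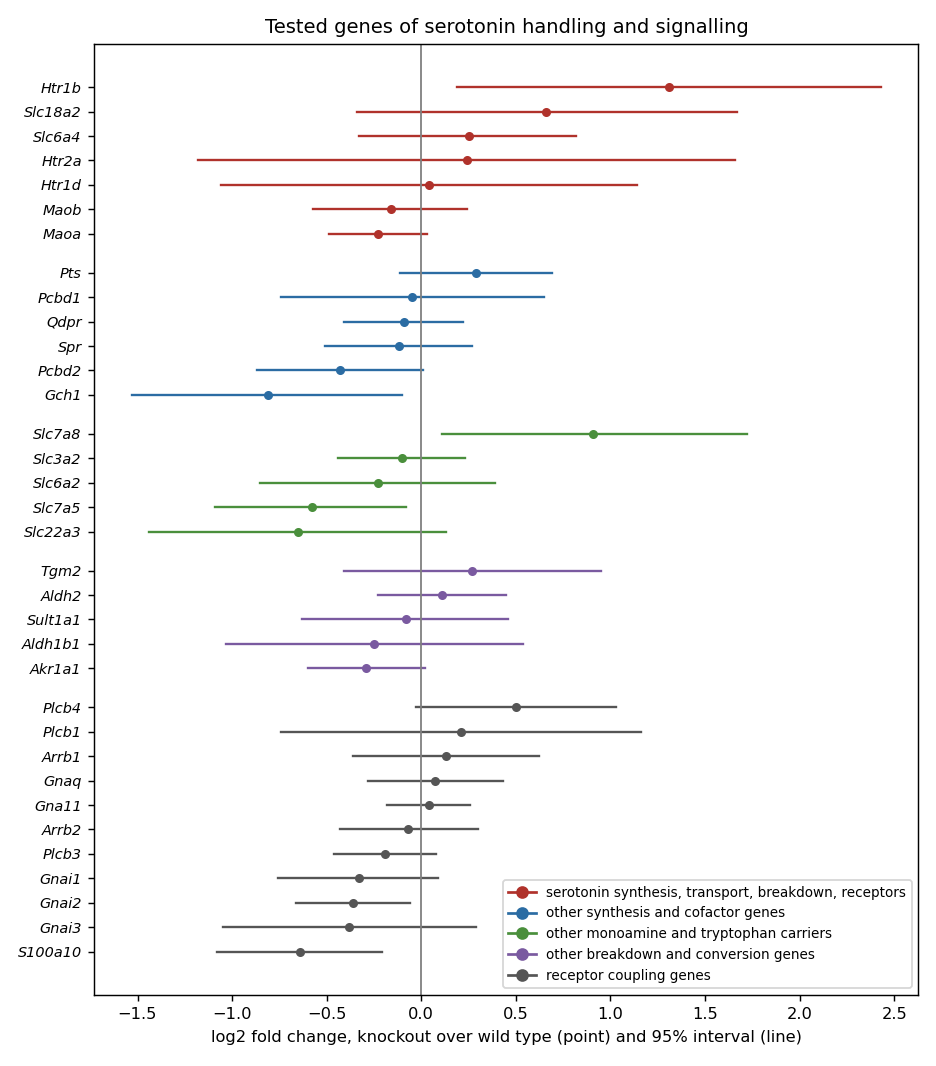
Log2 fold change of the 34 tested genes, knockout over wild type, with the 95% interval from edgeR, grouped by role. The intervals of Htr1b, Gch1, Slc7a8, Slc7a5, Gnai2 and S100a10 lie on one side of 0, and none of these 6 passed adjustment over all genes. Beside these 6 of 34 genes, 17.6% of all tested genes were under 0.05 before adjustment.

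The genes whose log2(CPM + 1) followed each tested gene most closely over the 8 libraries were taken from 13555 candidates with a mean of at least 1 CPM. For Slc6a4 they were Fastkd3 (Pearson r = 0.941), Rab20 (0.930) and Cdc25a (0.929), and 17 candidates exceeded 0.9. For Maob they were Kmt5a (0.977), Tspan8 (0.951) and Trim24 (0.937), and for Maoa Ssr1 (0.979), Trib1 (0.976) and Osbpl5 (0.976). Slc18a2 was closest to Tlr4 (0.969), Tmem44 (0.965) and Cpeb1 (0.961). The receptor genes were closest to Bcap29 (0.988, Htr1b), Cul7 (0.925, Htr1d) and Sncaip (0.942, Htr2a). With 8 libraries that share depth and tissue make-up and so many candidates, these values are a description only, and those of the receptor genes rest on few counts.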

How the data were processed

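Expected counts, TPM, FPKM and effective gene lengths are those the authors deposited in 1 RSEM table per library, per the file headers. STAR 2.7.6a and RSEM 1.31 are listed in the submitters' processing notes, as are DESeq2, DESeq and build GRCm38. No batch was given. The deposited FPKM values were not used. The authors' matrix of 17382 genes holds a signal normalized with DESeq2, per the labels, and entered 1 alternative. RSEM divides reads shared between genes and estimates a length per library, which moves TPM of low genes with several transcripts.

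Rounded expected counts were tested across all genes with edgeR 4.0.16 in R 4.3.3 (filterByExpr minimum count 10 and total 15, TMM, robust quasi-likelihood F test, genotype the only term, Benjamini-Hochberg over 16908 genes). The standard error is the absolute log2 fold change over the square root of F, and 95% intervals use the fit's degrees of freedom. DESeq2 1.42.0 and limma 3.58.1 served as alternatives. The fit was also run on simulated counts with 1 dispersion for all genes and changes only in genes of at least 1 CPM. That run therefore cannot show how the fit performs for the low genes. Positions are from GENCODE M21 on GRCm38, and symbols from the authors' matrix, then a reference name table.

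The 10 genes, the gene lists and the tests were chosen with earlier results of these data known. Besides the 10, the genes named are the 3 highest in TPM of each list, those without overlap between genotypes, and the 3 closest in pattern to each tested gene (1 for each receptor gene). Gch1, Tph2, Htr7 and the genes given by their highest count were named in addition.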

Additional observations from a re-analysis of the deposited data

Results flagged for a closer look

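The CPM values of 27 genes in 54 groups of 4 libraries were screened with Dixon's rule. In 7 groups the gap of a library to its nearest neighbour was above the 95% critical share of the group's range. Chance flags about 1 in 20 groups of normally distributed values, a rate that does not hold for genes with few counts. The flags of Ddc, Htr1b, Htr5b and Htr6 rest on few counts, and the Tph1 knockout group, all at 0, could not be flagged. In wild type, Ddc was at 0 in replicate 2 against 0.189 to 0.225 CPM in the others (gap share 0.840), the library that also had no Tph1 count. Htr1b was at 0.540 CPM in wild type replicate 4 against 0.133 to 0.189 (0.863), which is the library that came within 1 count of the knockout range. Slc3a2 and Gnai2 were highest in wild type replicate 3, at 148 against 112 to 113 CPM (0.978) and 248 against 227 to 230 CPM (0.849). Gnai2 was lowest in knockout replicate 4, at 148 against 190 to 196 CPM (0.886). Htr5b and Htr6 were each at 0.0833 CPM in knockout replicate 2 and at 0 in the other knockout libraries (a gap share of 1.0 for both), which is 2 counts each.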

How the results depend on the processing

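None of the 7 tested genes was called under any of the 19 alternatives, DESeq2 giving no adjusted p for Htr1b. The number of called genes among all tested was 110, and 984 by DESeq2, 32 and 29 by limma on log2(TPM + 0.5) and log2(TPM + 0.1), and 5, 43 and 26 with the tissue handling, skeletal muscle or mast cell level as a covariate. It ran from 8 to 170 when 1 library was left out, the extremes being without knockout replicates 2 and 3. Among the other 27 tested genes DESeq2 called 1, S100a10. At a mean of 0.5 TPM or of 1 CPM, 5 of the 10 genes counted as expressed instead of 3, and without 1 library 3. The number without overlap was 1 to 2 without 1 library, and the share of all genes without overlap in such splits was not computed.

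Among the 7, the log2 fold change of Htr2a was 1.85 with the handling covariate and that of Htr1b 0.36 by limma on log2(TPM + 0.5). The Tph1 difference was -0.392 to -0.796 CPM without 1 library, with an exact permutation p of 0.143 in 7 of 8 cases. It was 0.0286 without wild type replicate 2, whose 0 made the overlap, and this is the smallest p possible with 3 against 4 libraries.

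Signs turned as follows. Slc6a4 was at -0.013 with the mast cell covariate. Htr1d was at -0.42 with the length offset, -0.27, -0.43 and -0.46 by limma on TPM (pseudocount 0.5, then 0.1) and on the authors' matrix, -0.098 and -0.0015 with the handling and mast cell covariates, and from -0.32 to 0.34 without 1 library. Htr2a ran from -0.10 to 0.55 and Slc3a2 from -0.21 to 0.0062 without 1 library. With the handling covariate Slc3a2, Aldh2 and Tgm2 were at 0.21, -0.22 and -0.65, and with the muscle covariate Tgm2 was at -0.0039. The Ddc difference was 0.0125 in TPM and ran from -0.0921 to 0.00137 CPM without 1 library. The cause of each turn was not tested. No paired analysis was possible because the labels give no number shared between genotypes.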

Other observations

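Slc6a2, the noradrenaline transporter gene of sympathetic neurons, was read in every library and was named after its values were seen. It was at 3.44, 7.24, 3.58 and 3.85 TPM in wild type and 3.11, 4.87, 3.34 and 3.60 in knockout, a log2 fold change of -0.23 ± 0.28 (SE, adjusted p = 0.687 in edgeR). Of 6 neuronal markers, Uchl1 was the highest at 1.80 TPM (16 to 33 counts), Prph had 2 to 10 counts and Nefh 1 to 9, and Scn10a, Nefl and Snap25 had at most 4, 3 and 5 in any library. Their summed level was 1.53 to 2.08 CPM. The source of the Slc6a2 counts was not tested.

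Hdc, which makes histamine in mast cells, was at a mean of 4.84 TPM in wild type against 1.19 in knockout (log2 fold change -1.74 ± 0.54, SE, adjusted p = 0.162 in edgeR, above the threshold). Slc18a2, whose product also loads histamine into granules, had a log2 fold change of 0.66 (adjusted p = 0.462 in edgeR). Hdc was named after its values were seen. It had the most negative log2 fold change of the 7 tested mast cell markers. Of these 5 were negative, and Kit (0.36) and Gata2 (0.39) were positive.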
